A study of Mus musculus with 24 samples.

Results

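The Snrpn-Ube3a domain of mouse chromosome 7 was followed through 7 of its genes, taken by name from the 26225 protein-coding, lincRNA and processed transcript genes of GENCODE M1, whose build is NCBIM37 (mm9). The 7 were Snrpn, Ube3a, Ndn, Magel2, Mkrn3, Peg12 and Atp10a, which lie between chr7:65913572-66084796 (Atp10a) and chr7:69606757-69609396 (Peg12). The stretch from Snrpn to Ube3a was also cut into 81 windows of 10 kb, so that the long noncoding RNA between both genes, which hosts small nucleolar RNAs (snoRNAs), could be followed outside annotated exons.

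The domain is known as an imprinted one, in which a gene is transcribed from the chromosome of only one parent. Snrpn, Ndn, Magel2, Mkrn3, Peg12 and the snoRNA host transcript are known to be transcribed from the paternal chromosome, and Ube3a, in neurons, mainly from the maternal one. The host transcript starts at Snrpn and in neurons can run on as far as Ube3a, where it lies antisense to the gene, while the snoRNAs are cut out of its introns. Loss of the paternal genes is known from Prader-Willi syndrome and loss of maternal UBE3A from Angelman syndrome.

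Sequencing of RNA depleted of ribosomal RNA was compared between CCE cells and fetal head (FH). CCE are feeder-independent 129/SvEv embryonic stem cells, here after LIF withdrawal and 5 days with 0.266 µM retinoic acid, and FH is whole head of FVB/N fetuses at 14.5 dpc, a mixture of tissues that is mostly brain. The 14 RiboMinus libraries analysed here are 4 CCE preparations (CCE1 and CCE2, each sheared and hydrolysed) and 3 FH preparations (FH1 sheared, FH1 hydrolysed and FH2 hydrolysed), each sequenced in Vienna and in Nijmegen; FH2 had 2 rounds of depletion and the others 1, and Ribo-Zero gave 1 library per tissue. A further 8 RiboMinus samples, which are additional lanes or combinations of lanes, were not analysed here. The sheared and hydrolysed preparations of 1 number came from the same depleted RNA, so the 4 and 3 preparations stand for 2 depleted samples per tissue. The CCE preparations are technical replicates and no separate litters are stated for FH, so p values measure the spread between preparations only, and strain, tissue and culture differ together and cannot be told apart. Tags carried no strand and no parental allele, so neither sense from antisense nor the paternal from the maternal copy could be told apart, and in such bulk samples fewer cells of a type and less RNA per cell cannot be told apart either.

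The RiboMinus libraries held 920424 to 2473448 uniquely placed tags each, 13049762 in all for CCE and 9924914 for FH, and the Ribo-Zero libraries 28708715 for CCE and 48426051 for FH. All 6 neuronal markers examined were higher in FH, with a summed level of 28.5 to 34.4 tags per kb of exon and 1000000 unique tags (RPKM) in CCE preparations and 333 to 599 in FH preparations. The 4 markers of neural progenitors were also called higher in FH (15.4 to 26.1 against 40.1 to 58.5). Among them Sox2 overlapped between the preparations of the tissues (14.6 ± 4.65 RPKM in CCE and 29.7 ± 12.8 in FH). With Ribo-Zero Sox2 was lower in FH (42.7 in CCE and 21.4 in FH), while Nes, Pax6 and Fabp7 were higher there. FH was also higher in all 4 markers of cartilage, bone and connective tissue (10.5 to 23.5 against 233 to 297), 3 of skeletal muscle (12.0 to 18.0 against 167 to 272), 3 of blood (0.394 to 2.58 against 834 to 1352) and 2 of other lineages of the head (0 to 0.251 against 147 to 185). CCE was higher in all 6 markers of primitive endoderm (91.8 to 166 against 14.9 to 15.4) and in all 3 pluripotency markers (30.7 to 33.4 against 0 to 0.103). Of the primitive endoderm markers Dab2 overlapped between the preparations of the tissues (15.9 ± 5.95 RPKM in CCE and 6.87 ± 2.18 in FH). A marker that passed the filter of 20 tags only through the tissue where it was high had to differ. These were 3 neuronal markers, 1 of neural progenitors, 1 of cartilage, bone and connective tissue, 2 of skeletal muscle, all 3 of blood and both of other lineages, with under 20 tags in CCE alone, and all 3 pluripotency markers and 1 of primitive endoderm, with under 20 in FH alone. Pou5f1, Zfp42 and Gata4 had 0 tags in the FH preparations, and Fabp7, Myog, Myh3, Hbb-b1 and Krt5 had 0 in the CCE preparations. These lists moved with every tissue difference given here, and their part in it was not tested.

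The snoRNAs of the host transcript are shown first because their sequence decides what could be counted. GENCODE M1 lists 137 SNORD115 copies at chr7:66597596-66874465, 27 SNORD116 copies at chr7:66928831-67068008, and 1 copy each of Snord64 and SNORD107, all on the minus strand like Snrpn. The commonest sequence of each family is given 5′ to 3′ from mm9, with the C box motif TGATGA and the D box motif CTGA, by which C/D box snoRNAs are recognised, in capitals.
SNORD116, chr7:67047099-67047192, minus strand: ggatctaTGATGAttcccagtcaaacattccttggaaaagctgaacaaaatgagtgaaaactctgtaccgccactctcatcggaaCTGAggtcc
SNORD115, chr7:66872982-66873060, minus strand: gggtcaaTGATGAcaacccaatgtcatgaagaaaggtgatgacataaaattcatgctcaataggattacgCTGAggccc
Snord64, chr7:67123694-67123760, minus strand: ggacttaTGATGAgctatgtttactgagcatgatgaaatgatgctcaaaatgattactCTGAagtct
SNORD107, chr7:67125762-67125831, minus strand: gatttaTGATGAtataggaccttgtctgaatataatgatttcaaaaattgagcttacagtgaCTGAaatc

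The SNORD116 sequence shown stood in 18 of 27 copies, and the 27 copies held 10 distinct sequences. The SNORD115 sequence shown stood in 33 of 137 copies, which held 57 distinct sequences. Both motifs were found in all 27 SNORD116 copies, and in SNORD115 TGATGA was found within the first 20 bases of 125 copies and CTGA within the last 20 bases of 134. Snord115 is known for a stretch that can pair with the RNA of Htr2c, the serotonin receptor 2C. The longest perfect complement between the commonest SNORD115 sequence and the Htr2c gene was 18 bases, from base 53 to base 70, shown in capitals here, and it matched chrX:143604232-143604249 in an Htr2c exon.
SNORD115 with the Htr2c complement: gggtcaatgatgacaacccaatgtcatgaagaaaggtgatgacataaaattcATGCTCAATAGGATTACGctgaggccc
The same 18 bases stood in 105 of the 137 copies.

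Since only tags with a single place in the genome were deposited, repeated copies could not be counted. A stretch of 36 bases, the RiboMinus read length, that occurs once in the genome was found in 51 of 137 SNORD115 copies and in 10 of 27 SNORD116 copies. With RiboMinus, 0 tags lay in SNORD115 and SNORD116 copies in CCE, against 3 and 1 in FH. With Ribo-Zero, CCE again had 0 in both, while FH had 41 tags in 10 SNORD115 copies and 11 tags in 3 SNORD116 copies. A count of 0 allows up to 3 tags. The unique snoRNAs next to Snrpn had tags in both tissues, with 1 tag for Snord64 in CCE and 4 in FH with RiboMinus and 25 and 56 with Ribo-Zero, and 3 and 2, then 14 and 21, for SNORD107. A tag inside a snoRNA can come from its host transcript as well.

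Of the 7 genes, Ndn, Snrpn and Magel2 were higher in FH, Atp10a was lower, and Ube3a, Mkrn3 and Peg12 did not pass the test (adjusted p under 0.05, limma). All 7 had the 20 tags needed for the test. The count of 4 in 7 stands beside 50.2% of all 15585 genes tested, 23.4% higher and 26.8% lower in FH, so the share of members called was near the background. The median log2 difference over all genes tested was -0.14. Over all genes 3646 were higher and 4177 lower, while limma-voom called 4230 higher and 3160 lower and TMM scaling 3376 and 4936.

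Snrpn encodes SmN, a spliceosomal Sm protein of brain. Its level in CCE was 10.4 RPKM (CCE1 sheared), 11.7 (CCE1 hydrolysed), 7.57 (CCE2 sheared) and 10.4 (CCE2 hydrolysed). FH had 15.2 (FH1 sheared), 22.8 (FH1 hydrolysed) and 26.8 (FH2 hydrolysed), so each FH preparation lay above each CCE preparation. The means were 10.0 ± 1.76 (SD, n = 4) and 21.6 ± 5.88 (SD, n = 3), with a log2 difference of 1.01 on the log2(RPKM + 1) scale (SE 0.23, adjusted p = 0.00585). With the Nijmegen libraries alone the difference was 1.06 with an adjusted p of 0.0501, and single libraries overlapped, reaching 15.04 in CCE and going down to 13.9 in FH. The Ribo-Zero libraries gave 5.68 in CCE and 8.34 in FH.

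Snrpb, the close relative of Snrpn that encodes the SmB proteins of most tissues, went the other way. Its level was 105.6 ± 26.7 RPKM in CCE and 25.4 ± 2.31 in FH (log2 difference -1.99, SE 0.22, adjusted p = 9.88e-05). Of the 36-base stretches in Snrpn exons 86.9% were unique, the lowest share among the members, so its level is the least certain for reads shared with near-identical copies.

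Most Snrpn tags lay in a few exons. The first exon of the shorter transcript (chr7:67149922-67150042) held 133 of the 293 RiboMinus exon tags of CCE and 192 of the 503 of FH. The exon at chr7:67130717-67130869 followed with 64 and 127. The longer annotated transcript starts upstream at 67285105, and its second exon (chr7:67277136-67277283) had 3 tags in CCE and 13 in FH with RiboMinus and 9 and 70 with Ribo-Zero. Its first exon had 0 tags in every pool, with 54.4% of its 36-base stretches unique.

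Ndn and Magel2 are intronless genes of the MAGE family with known roles in neurons and the hypothalamus. Ndn, at chr7:69493163-69494814, was the most abundant member in both tissues with RiboMinus, and in FH with Ribo-Zero (108 RPKM); in the CCE Ribo-Zero library it had 28.7 and Ube3a 40.5. It had 190 RPKM (CCE1 sheared), 82.5 (CCE1 hydrolysed), 117 (CCE2 sheared) and 91.2 (CCE2 hydrolysed) in CCE, and 383 (FH1 sheared), 286 (FH1 hydrolysed) and 281 (FH2 hydrolysed) in FH. The preparations of the tissues did not overlap, and within either fragmentation method FH was higher. Single libraries overlapped, reaching 194 RPKM in CCE and going down to 164.8 in FH. The means were 120 ± 48.9 (n = 4) and 317 ± 57.4 (n = 3), a log2 difference of 1.45 (SE 0.31, adjusted p = 0.00368), which fell to 0.98 with an adjusted p of 0.0627 when tags with the same start were counted once. Such counting keeps at most 1 tag per start and strand in a library, which limits the count of a short gene with many tags.

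Magel2, at chr7:69521865-69526526, had the largest difference among the members. CCE preparations had 1.29, 0.913, 1.11 and 0.828 RPKM, from 13 to 18 tags each, in the order used for Ndn. FH preparations had 28.5, 13.2 and 15.3, from 228 to 308 tags. The sheared FH1 preparation stood above both hydrolysed ones, and no FH value came near those of CCE. The log2 difference was 3.22 (SE 0.26, adjusted p = 1.48e-05), from 1.04 ± 0.208 to 19.0 ± 8.31. The added 1 RPKM makes this scale understate the change of a gene as low as Magel2 in CCE. Of its relatives in the MAGE family, Maged1 had 377 ± 99.2 and 329 ± 38.5 (adjusted p = 0.616), and Ndnl2 had 7.68 ± 1.56 and 5.52 ± 0.625 (adjusted p = 0.116).

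Mkrn3, a RING finger E3 ubiquitin ligase of the makorin family, had 8.11, 5.09, 8.95 and 5.10 RPKM in CCE and 8.68, 7.05 and 6.23 in FH. The groups overlapped, and in both tissues the sheared preparations were the highest. The log2 difference was 0.12 (SE 0.24, adjusted p = 0.711). Peg12 (Frat3), a member of the Frat family of GSK3-binding proteins, had 6.60, 4.84, 5.32 and 3.26 in CCE and 5.62, 3.77 and 3.15 in FH, again overlapping (log2 difference -0.21, SE 0.25, adjusted p = 0.517). Its relative Frat2 was higher in FH (2.27 ± 1.22 and 9.00 ± 1.38, log2 difference 1.68, SE 0.29, adjusted p = 0.00122).

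Ube3a encodes the E3 ubiquitin ligase E6-AP. It had 24.7, 17.8, 18.2 and 19.5 RPKM in CCE and 24.3, 18.8 and 18.4 in FH, with means of 20.1 ± 3.19 and 20.5 ± 3.30. The groups overlapped almost entirely and the log2 difference was 0.03 (SE 0.19, adjusted p = 0.909). With positions counted once it was -0.09 and with voom 0.24, so no direction can be given. Atp10a, a phospholipid-transporting ATPase next to Ube3a, was the only member lower in FH. It had 8.39, 5.40, 9.26 and 5.98 in CCE and 3.29, 2.27 and 2.28 in FH, without overlap, and a log2 difference of -1.18 (SE 0.23, adjusted p = 0.00239).

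**Figure D1:**
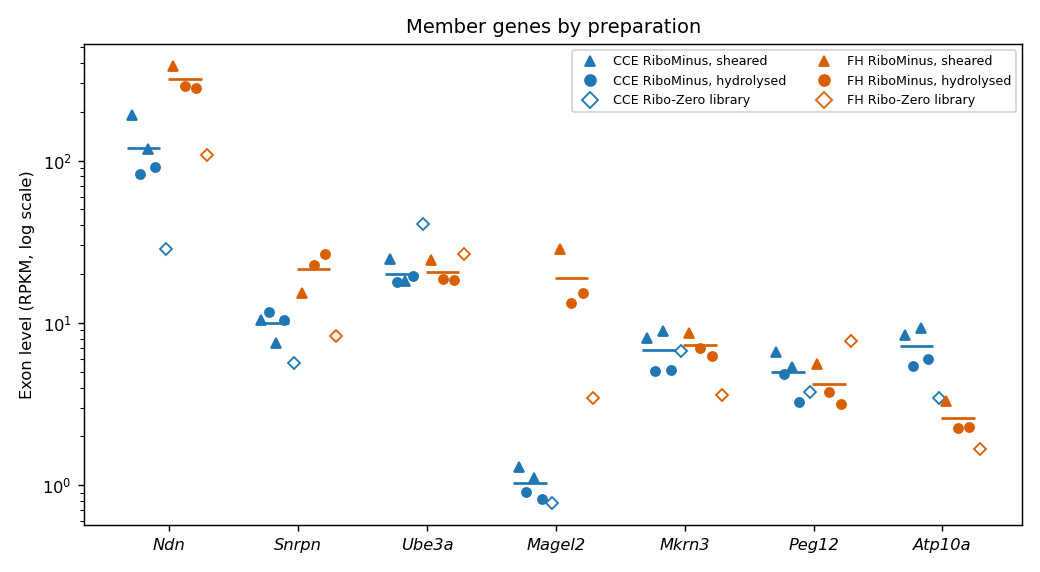
Exon level (RPKM, log axis) of each member gene; each filled symbol is 1 RiboMinus preparation (triangles sheared, circles hydrolysed), lines are means of 4 CCE and 3 FH preparations, and open diamonds are the Ribo-Zero libraries. With RiboMinus Magel2 lies between 0.828 and 1.29 RPKM in CCE and between 13.2 and 28.5 in FH, and Ube3a between 17.8 and 24.7 in both; with Ribo-Zero Magel2 is at 3.43 in FH and Ube3a at 40.5 in CCE and 26.5 in FH. Atp10a is the member whose FH symbols all lie below those of CCE.

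With RiboMinus the order of levels differed between the tissues. In CCE Ndn was followed by Ube3a, Snrpn, Atp10a, Mkrn3, Peg12 and Magel2, where Snrpn overlapped Atp10a and Mkrn3 and where Atp10a, Mkrn3 and Peg12 overlapped each other. In FH Ndn was followed by Snrpn, Ube3a and Magel2, whose ranges overlapped, then by Mkrn3, and last by Peg12 and Atp10a, which overlapped. With Ribo-Zero the order was Ube3a, Ndn, Mkrn3, Snrpn, Peg12, Atp10a and Magel2 in CCE and Ndn, Ube3a, Snrpn, Peg12, Mkrn3, Magel2 and Atp10a in FH, with 1 library each. Fragmentation moved the levels as well. With tissue in the model, Ndn, Magel2, Mkrn3, Peg12 and Atp10a were lower after hydrolysis, by 0.49 (Atp10a) to 0.64 (Ndn) on the log2 scale (adjusted p between 0.0134 and 0.0447), and Snrpn was higher by 0.44 (adjusted p = 0.0462). That is 5 of 7 lower and 1 higher, beside 14.5% and 20.8% of all genes. Whether the tissue difference depended on fragmentation could hardly be tested, as FH had 1 sheared preparation; the lowest adjusted p of that interaction was 0.431, for Magel2.

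Other genes of the domain were few and mostly at or near 0. A330076H08Rik, a lincRNA between Snrpn and Ndn, had 1, 3, 1 and 2 tags in the CCE preparations and 13, 36 and 40 in FH (0.113 ± 0.0434 and 1.90 ± 0.334 RPKM, log2 difference 1.38, SE 0.13, adjusted p = 2.63e-05). With levels this near the added 1 RPKM the log2 difference depends on it and was 3.24 with 0.1 added and 3.96 with voom, and the gene passed the filter of 20 tags through FH. Gm7367 was lower in FH (25.0 ± 10.7 and 9.69 ± 2.89 RPKM, adjusted p = 0.0167), a call lost in 3 of 19 alternatives, for example with an adjusted p of 0.0713 without the hydrolysed FH1 preparation. C230091D08Rik, Ube2nl and both genes named A230006K03Rik had at most 3 RiboMinus tags in either tissue. Of 15 genes on either side of the domain 14 were tested, and 7 were higher and 2 lower in FH, beside 23.4% and 26.8% of all genes. Of the 7, 4 had under 20 tags in CCE and passed the filter only with FH, Otud7a and Trpm1 among them. Of the 10 with at least 20 tags in CCE alone, 3 were higher, 2 lower and 5 not called. Chrna7, for example, had 0.633 ± 0.133 RPKM in CCE and 1.48 ± 0.234 in FH (adjusted p = 0.00555). Cyfip1 (10.9 ± 1.75 and 4.50 ± 0.178, adjusted p = 0.000964) and Mtmr10 were lower.

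Over the whole stretch from the 3′ end of Snrpn to that of Ube3a (chr7:66562098-67127387), outside protein-coding exons, the CCE preparations had 117, 278, 61 and 258 tags and the FH preparations 212, 871 and 898. With tags added over the preparations FH was 3.65 times CCE (95% counting interval 3.35 to 3.98), and with Ribo-Zero 2.04 times (1.97 to 2.10; 4761 and 16344 tags). In CCE the RiboMinus tags behind Snrpn lay within 16 kb of its 3′ end but for a few, up to the flank of Ube3a. In FH tags went on between the genes. From 20 kb past the Snrpn 3′ end to 10 kb past the Ube3a 3′ end (chr7:66572098-67107387), and outside protein-coding exons, the CCE preparations had 2, 3, 3 and 5 tags and the FH preparations 99 (FH1 sheared), 444 (FH1 hydrolysed) and 471 (FH2 hydrolysed). Per kb of sequence unique at 36 bases this was, in tags per 1000000 unique tags (CPM), 0.00591 ± 0.00220 in CCE and 0.551 ± 0.212 in FH. With tags added over the preparations FH was 103 times CCE (95% counting interval 59.7 to 193). With Ribo-Zero 120 tags in CCE and 7661 in FH gave a ratio of 37.9 (31.6 to 45.7). The borders at 20 and 10 kb were set after the tags were seen and leave out the flanks of both genes, where CCE had most of its tags, so these ratios are a description of that inner stretch.

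With no filter on low values, 22 of the 81 windows were higher in FH and 0 lower (adjusted p under 0.05, limma over all windows of the genome), where 8.67% of 265500 windows of the genome, empty ones included, were higher. A filter of 20 tags over the RiboMinus libraries left 34 windows, of which 27 were higher in FH, 0 lower and 7 not past the threshold, beside 37.8% of 74787 windows of the genome. Of these 34, 15 had 0 tags in CCE and 6 had under 20, so those 21 passed the filter only with their FH tags, and nothing is read from how many were higher. In the 13 windows with at least 20 tags in CCE alone, all in or next to Snrpn or Ube3a, 6 were higher and 7 did not pass the threshold, 1 of them in Snrpn and 6 in Ube3a or, for 1 window, across its 3′ end. From Snrpn to SNORD116 the 5 windows held 69, 1, 1, 0 and 1 tags in CCE and 191, 58, 52, 112 and 178 in FH with RiboMinus. With Ribo-Zero they held 547, 12, 2, 10 and 1 in CCE and 1792, 506, 382, 1097 and 725 in FH.

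**Figure D2:**
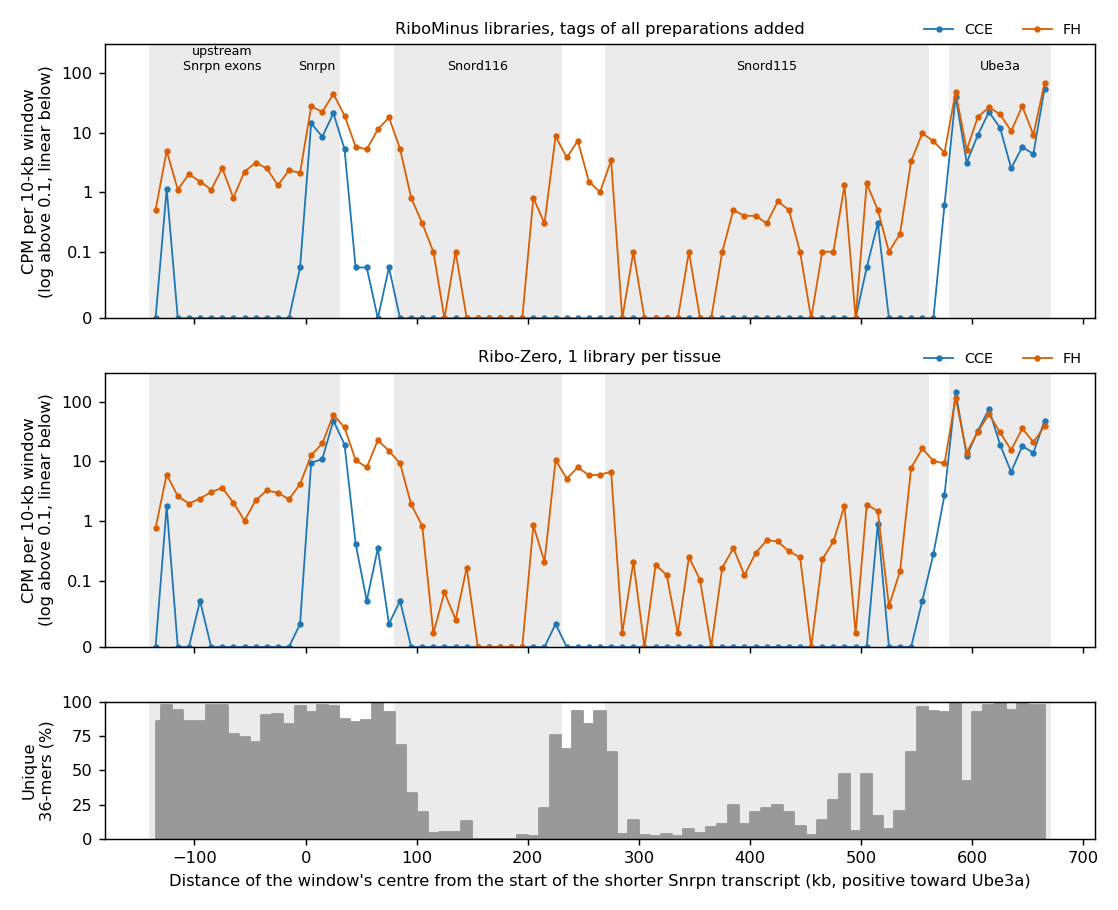
CPM in each 10-kb window from upstream of Snrpn, on the left, to Ube3a, on the right, for RiboMinus (top) and Ribo-Zero (middle), with the share of unique 36-base stretches below; the y axis is logarithmic above 0.1 CPM. FH runs above 0 wherever the windows are unique, and CCE drops to about 0 past Snrpn and returns at Ube3a. Both are near 0 in the windows of the SNORD116 and SNORD115 arrays with few unique stretches.

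The arrays themselves could be seen only in part. Of the SNORD116 span 11.7% and of the SNORD115 span 17.3% was unique at 36 bases, against 91.5% between Snrpn and SNORD116. Of 51 windows with at least 20% unique, 51 had a tag in FH and 20 in CCE with RiboMinus, and 51 and 25 with Ribo-Zero. The SNORD116 span had 0 tags in each CCE preparation and 3, 17 and 22 in FH. Scaled by unique tags, FH was 18.4 times a floor of 3 tags over all CCE libraries (lower 95% counting limit of the ratio 14.3). The stretch between both arrays, which holds most of Ipw, a noncoding RNA of the domain, had 0 tags in each CCE preparation and 19, 108 and 120 in FH, 108 times the same floor (lower limit 87.4). With Ribo-Zero, 1 tag in CCE stood against 1978 in FH there. The SNORD115 span had 0, 1, 1 and 3 tags in the CCE preparations and 17, 82 and 87 in FH, 5 and 186 in all (ratio 48.9, 20.6 to 152). Of the 5 tags in CCE, 4 lay in 200 bases (chr7:66637494-66637693), where FH had 2. With Ribo-Zero the span had 26 tags in CCE, 25 of them in the same 200 bases, where FH had 17.

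Cut into 4 equal stretches from Snrpn to Ube3a, without protein-coding exons, each stretch was higher in every FH preparation than in every CCE preparation. On the log2(CPM per 10 kb + 1) scale the means were 1.27 ± 0.630 in CCE and 2.94 ± 0.453 in FH in the first stretch and 0 and 1.38 ± 0.497 in the second. The third had 0 and 0.24 ± 0.171, with 12.1% of it unique, and the fourth 1.60 ± 0.378 and 2.37 ± 0.400. In the third the FH preparations had 1 (FH1 sheared), 11 and 19 tags, so its separation rested on 1 tag. How often stretches of this length separate over the genome was not computed. The exact permutation test gave p = 0.0571 in each of the 4 stretches, adjusted 0.0571, which is the smallest that 4 against 3 preparations allow.

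Within the first 20 kb behind Snrpn both tissues had tags. The level in CPM per unique kb was 1.22 ± 0.806 in CCE and 3.09 ± 1.03 in FH. With RiboMinus it reached its height 4 to 5 kb past the annotated end, with 70 tags in CCE and 101 in FH in that 1 kb (with Ribo-Zero at 4 to 5 kb in CCE and 5 to 6 kb in FH), and had a further rise at 12 to 13 kb (11 and 34 tags; 147 and 361 with Ribo-Zero). The noncoding RNA D7Ertd715e lies in this part, and over its region CCE preparations had 6, 27, 4 and 21 tags and FH preparations 18, 79 and 53. From 20 kb past Snrpn to SNORD116 the CCE preparations had 1, 0, 0 and 2 tags and the FH preparations 47, 183 and 186 (ratio 182, 62.0 to 888). With Ribo-Zero there were 17 tags in CCE and 2775 in FH (ratio 96.8, 60.3 to 166). The 20 kb border is the one set after the tags were seen.

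**Figure D3:**
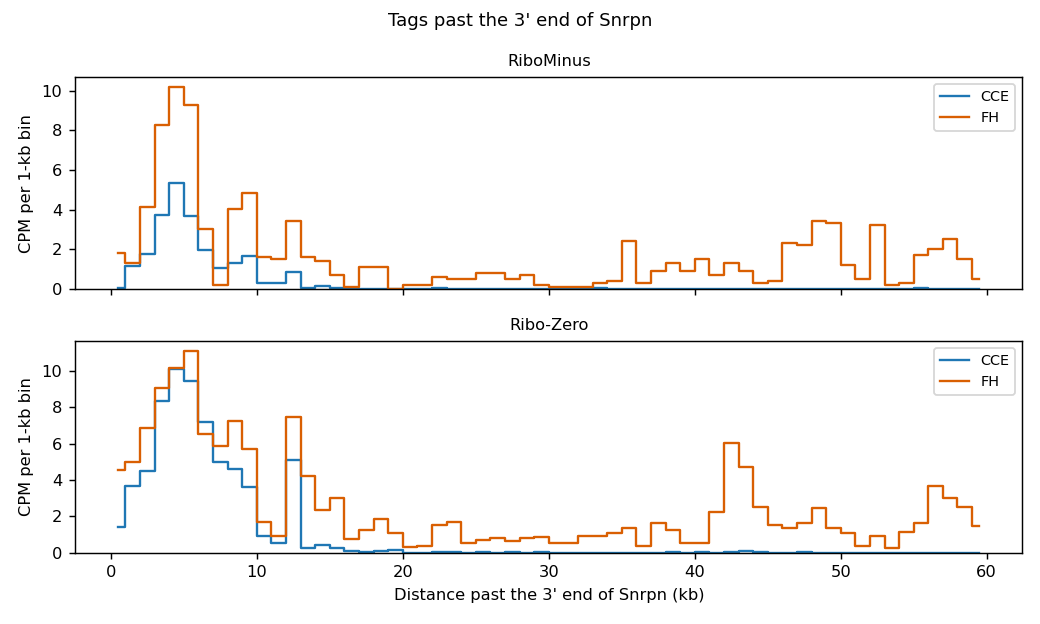
CPM in 1-kb bins from the Snrpn 3′ end toward SNORD116, with all preparations of a tissue added (RiboMinus, top) or 1 library per tissue (Ribo-Zero, bottom). Both tissues have tags over the first 10 kb and at 12 to 13 kb, after which the CCE line stays near 0 and the FH line does not.

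Upstream of Snrpn the tissues differed in a like manner. Between the start of the longer transcript at 67285105 and that of the shorter one at 67150042 the CCE preparations had 1, 3, 2 and 6 tags outside exons and the FH preparations 32, 113 and 118. In CPM per unique kb this was 0.00761 ± 0.00522 and 0.210 ± 0.0596. All 15 RiboMinus tags of CCE in this stretch, exons included, lay within 1500 bases of the second exon of the longer transcript, where FH had 35. The rest of the stretch had 0 in CCE and 241 in FH, and 3 and 1667 with Ribo-Zero. The window with this exon was the only one upstream of the shorter transcript with a RiboMinus tag in CCE, 15 against 49.

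At the Ube3a end tags past the annotated 3′ end were found in both tissues. In the first 10 kb CCE preparations had 73, 150, 42 and 128 tags and FH preparations 45, 157 and 173, with levels of 2.95 ± 1.12 and 3.62 ± 1.03 CPM per unique kb. These tags were densest from 1 to 2 kb past the end (134 and 130). With Ribo-Zero the first 10 kb went the other way, with 9.66 in CCE and 8.33 in FH (ratio 0.862, 0.821 to 0.905). These 2 levels are CPM per kb of sequence unique at 51 bases, the Ribo-Zero read length. From 10 kb on to SNORD115 5 tags were left in CCE and 123 in FH with RiboMinus (ratio 32.4, 13.5 to 101). With Ribo-Zero 74 and 1039 were left (ratio 8.32, 6.57 to 10.7), and these 74 were most of the 120 CCE tags of the inner stretch.

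Inside Ube3a the introns held more tags relative to the exons in each FH preparation. The ratio of intronic to exonic density in the CCE preparations was 0.00781, 0.0207, 0.0106 and 0.0184, in the order given for Ndn. FH preparations had 0.0287, 0.0727 and 0.0698. Sheared preparations were lower than hydrolysed ones in both tissues, and no FH value reached down to CCE. The log2 difference was 1.97 for the whole gene, 1.84 for the introns of its 5′ part and 2.33 for those of its 3′ part, both over the exons of the whole gene. The 3′ part lies nearer to Snrpn. Each of the 3 had the smallest p possible (exact permutation test, p = 0.0571, adjusted 0.0714 over 5 ratios). Over 12159 genes with introns the median log2 difference was 0.85, 38.6% had each FH preparation above each CCE preparation, 2.21% had each below, and the 95th percentile was 2.03. A higher ratio in FH was thus common among genes, and that of the whole Ube3a gene lay below the 95th percentile. The 2.33 of its 3′ part lay above it, though that percentile is of whole genes. With Ribo-Zero the Ube3a ratio was 0.0224 in CCE and 0.0733 in FH. Without strand, intronic Ube3a tags and tags of an antisense transcript cannot be told apart.

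The same ratio of Snrpn depended on where its introns were taken to end. Over the whole annotated gene CCE preparations had 0.000831, 0.00316, 0.00345 and 0.00349 and FH preparations 0.00874, 0.0109 and 0.00823 (log2 difference 1.90, exact permutation test, p = 0.0571, adjusted 0.0714). Over the introns of the shorter transcript alone CCE preparations had 0.00469, 0.0206, 0.0212 and 0.0179 and FH preparations 0.0118, 0.0171 and 0.0125, overlapping, with a log2 difference of -0.07 (exact permutation test, p = 0.914), a choice added after seeing the data. In Atp10a, which is not within the host transcript, CCE preparations had 0.00819, 0.0294, 0.0120 and 0.0324 and FH preparations 0.0146, 0.0488 and 0.0648, also overlapping (log2 difference 1.03, exact permutation test, p = 0.229). Within either fragmentation method, however, each FH value of Atp10a was above those of CCE. With Ribo-Zero the ratio was 0.0362 in CCE and 0.115 in FH for Atp10a, higher in FH as for Ube3a. It was 0.0127 and 0.0437 for the whole Snrpn gene and 0.0819 and 0.118 for its shorter transcript.

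**Figure D4:**
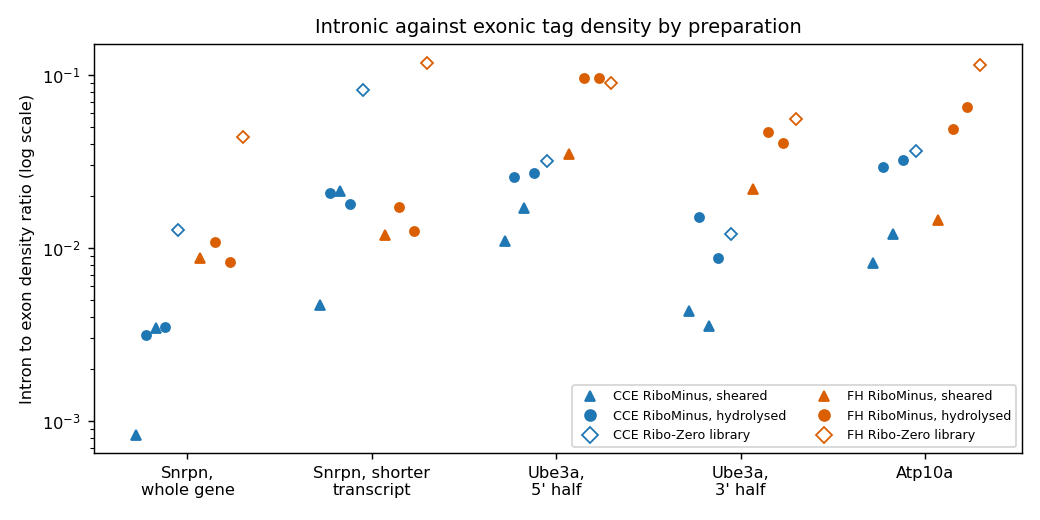
Tag density in introns divided by that in exons (log axis); each filled symbol is 1 RiboMinus preparation (blue CCE, orange FH; triangles sheared, circles hydrolysed) and open diamonds are the Ribo-Zero libraries. Within either kit FH lies above CCE for the whole Snrpn gene and both parts of Ube3a. Between kits it does not for Snrpn, where CCE with Ribo-Zero (0.0127) lies above FH with RiboMinus. With RiboMinus the tissues overlap for the shorter Snrpn transcript and for Atp10a. For Atp10a FH lies above CCE within either fragmentation method.

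The Ribo-Zero libraries, from separate RNA and with 1 library per tissue, allowed no test, and their intervals cover counting error only. Their FH to CCE ratio was 3.75 (3.55 to 3.98) for Ndn, 4.41 (3.59 to 5.47) for Magel2, 1.47 (1.298 to 1.67) for Snrpn and 0.485 (0.427 to 0.551) for Atp10a, on the same side of 1 as with RiboMinus. With positions counted once it was 1.17 for Ndn, 2.89 for Magel2, 1.07 for Snrpn, 0.390 for Atp10a and 1.31 for Peg12. That setting keeps at most 1 tag per start and strand, which limits the count of a short gene with many tags. Ndn, with 1652 exon bases, had 8606 tags in FH and 1359 in CCE, and its 1.17 is not read as the size of the tissue difference. The scale changed too, from 28708715 tags in CCE and 48426051 in FH to 14747865 and 30300144 positions. The ratio fell for every member, and the cause was not tested. The median ratio of all genes, with every tag counted, was 0.738. Magel2 had a ratio of 16.7 (12.9 to 22.0) with RiboMinus tags added. Its level in FH with Ribo-Zero was 0.202 times that with RiboMinus (0.182 to 0.223), where the median gene had 0.728.
Ube3a (0.653, 0.630 to 0.677) and Mkrn3 (0.539, 0.473 to 0.614) had ratios under 1 with Ribo-Zero, where the median gene had 0.738, and near 1 with RiboMinus. Peg12 stood apart, since it was 2.06 times higher in FH with Ribo-Zero (1.80 to 2.36) and 0.781 with RiboMinus (0.605 to 1.01). Its CCE level was 3.75 RPKM with Ribo-Zero and 5.01 ± 1.38 with RiboMinus, and its FH level 7.71 and 4.18 ± 1.28. Kit, RNA, sequencing facility, sequencer and read length (36 bases with RiboMinus, 51 with Ribo-Zero) changed together and cannot be told apart. Both Ribo-Zero libraries were hydrolysed, while the RiboMinus values include sheared preparations, so fragmentation differed as well.

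**Figure D5:**
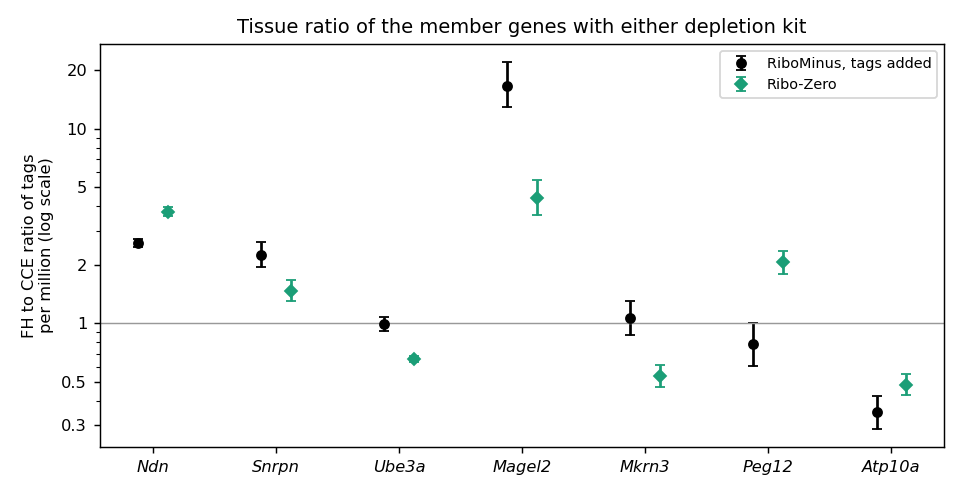
FH to CCE ratio of CPM (log axis) for the RiboMinus tags added over preparations (circles) and the Ribo-Zero libraries (diamonds), with exact 95% counting intervals. Ndn, Snrpn, Magel2 and Atp10a lie on the same side of 1 with both kits, and Peg12 lies below 1 with RiboMinus and above 1 with Ribo-Zero.

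The protein-coding genes whose log2(RPKM + 1) was most like that of a member over the 7 preparations and 2 Ribo-Zero libraries, among 10306 genes, were found by Pearson's r as a description. For Snrpn they were Snx32 (0.988), Mapre3 (0.978), 2610524H06Rik (0.978), Fars2 (0.974) and Ercc8 (0.966). For Ndn they were Fam20c (0.988), Rac3 (0.987), Dusp8 (0.984), Tmem119 (0.984) and Ndrg4 (0.981), and for Ube3a D4Ertd22e (0.959), Axin1 (0.937), Numa1 (0.936), Tspyl1 (0.934) and Prpsap1 (0.934). The 9 points share 2 tissues, 2 kits and their depths, so such values are high for many genes.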

How the data were processed

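Per the labels and the study's methods, Bowtie placed the reads on mm9, and the authors deposited uniquely placed tags as lines with start and end. The score deposited by the authors is constant within a library and was not used. Fragmentation follows the labels, although their protocol text describes hydrolysis for all RiboMinus samples. Of each library the tags were counted here by midpoint in merged exons of GENCODE M1 and in windows, scaled by all unique tags to CPM or RPKM, and added over both locations of a preparation. Counted tags include repeated positions, 17.7% to 29.4% in RiboMinus libraries, 48.6% in the CCE and 37.4% in the FH Ribo-Zero library. limma 3.58.1 (R 4.3.3) with a trended variance and Benjamini-Hochberg adjustment was run on log2(value + 1) of all genes or windows with at least 20 tags over 14 libraries. Ratios of intron to exon density had 0.5 tags added to both counts. Intervals are exact at 95% and cover counting error only, as tags are not independent molecules. On simulated data 178 of 200 genes changed 4-fold and 37 of 200 changed 2-fold were recovered among 15585, with 12 and 2 unchanged genes called. The simulation had a fixed dispersion, no effect of fragmentation and a far smaller share of changed genes than the 50.2% called here. Its counts are therefore not the power of the test in these data. Other steps used Python 3.11.15, pandas 2.3.3, scipy 1.17.1 and matplotlib 3.10.9.

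Genes named are the members, the annotated genes between Atp10a and Peg12, listed neighbours, relatives and markers, and the 5 genes most like Snrpn, Ndn and Ube3a. One listed neighbour is not reported here. Members and lists were chosen with earlier results of these data known. Of 9 listed relatives Frat1 and Atp10d are not protein-coding in GENCODE M1 and were not used, and of the others not named above, Mkrn1, Mkrn2 and Atp10b were not called or not tested. Preparation numbers (1 sheared, 1 hydrolysed, 2 hydrolysed) are shared by the tissues. Deviations from the tissue mean correlated across 15585 genes with r of 0.621, 0.353 and 0.437 between preparations of the same number and fragmentation. The hydrolysed preparations correlated slightly more crosswise (0.363 for CCE1 with FH2 and 0.507 for CCE2 with FH1). These values therefore do not single out a pairing by number, which was an assumption of the replicate block. Between Vienna and Nijmegen the difference of hydrolysed preparations 1 and 2 correlated negatively (r = -0.644 in CCE and -0.493 in FH), so these numbers may be crossed at one location. Alternatives tried were other pseudocounts, filters, scalings, voom, covariates, the replicate block, single locations, positions counted once, window size and leaving out each preparation.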

Additional observations from a re-analysis of the deposited data

Results flagged for a closer look

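Over 27 groups (4, 6 or 8 values each), 1 held a value far from the others. The intron to exon density ratio of Snrpn over the whole gene was 0.000831 in the sheared CCE1 preparation, from 4 intronic and 68 exonic tags, while the other CCE preparations had 0.00316 to 0.00349. Chance flags about 1 in 20 groups. Without this preparation the log2 tissue difference of the ratio was 1.43, against 1.90 with it. This is the lowest value in the range given below for leaving out each preparation.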

How the results depend on the processing

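Magel2 and Atp10a passed the threshold under all 19 alternatives, Snrpn and Ndn under 18 each. The 4 members called became 3 with Nijmegen libraries alone (Snrpn) and 3 with positions counted once (Ndn). With the replicate block, whose pairing by number is an assumption, 4 members and 30 windows were called and no member's call changed. Leaving out each preparation gave 4 members and 24 to 28 windows. Windows were not run with TMM, voom, hydrolysed preparations alone or crossed numbers. The other alternatives gave 21 to 31 of the 10-kb windows and 33 of 44 windows of 5 kb, with 0 lower in FH. TMM scaling moved the median gene to -0.23 and voom to 0.03. Ube3a, near 0, changed sign to -0.0942 with TMM scaling, -0.0921 with positions counted once, -0.0098 with the block, -0.0234 with Vienna-IMP libraries alone and -0.0035 with hydrolysed preparations alone, and ran from -0.0925 to 0.13 without single preparations. Mkrn3 became -0.10 with Nijmegen libraries alone. The Snrpn intron ratio became -0.0664 over the shorter transcript, by fewer introns, and otherwise ran from 1.43 to 2.07 without single preparations. The 4 stretches from Snrpn to Ube3a kept their direction throughout, as did the Ube3a and Atp10a ratios. With Nijmegen libraries alone the preparations of the tissues overlapped in the third and the fourth stretch (exact permutation p = 0.286 and 0.171) and in the Ube3a ratio (0.114), where the smallest p possible is 0.0571. With positions counted once the Ribo-Zero ratio of FH to CCE was 1.07 for Snrpn, 0.518 for Ube3a, 1.17 for Ndn, 2.89 for Magel2, 0.435 for Mkrn3, 1.31 for Peg12 and 0.390 for Atp10a, where the cause was not tested, and without mitochondrial tags in the scale 0.628 for Ube3a. In the noncoding stretch RiboMinus CCE preparations held 0 to a few tags per window, and 31.8% of it was unique at 36 bases.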
